A study of Mus musculus with 4 samples.

Results

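The IL-22, IL-17 and IL-23 axis was followed through 9 genes in inflamed mouse colon. The genes were the cytokines Il22, Il17a and Il17f, the IL-23 subunit Il23a, and the receptors Il22ra1, Il22ra2, Il17ra, Il17rc and Il23r. They were taken by name, as 9 of the 20832 genes that the array probes name through RefSeq accessions. A gene with several probes was represented by the one with the highest mean processed signal. Colons came from C57BL/6J mice aged 14 weeks, either STAP-2-/- mice, which lack the signalling adaptor STAP-2, or wild-type (WT) mice. Every mouse of both genotypes had received 1.75% dextran sulfate sodium (DSS) in the drinking water, a polymer toxic to gut epithelium that is used to set off colitis, so no colon without colitis was measured. One label gives 7 days of DSS and another 3 days. RNA of whole colons was pooled from 3 mice per array, and 2 STAP-2-/- and 2 WT pools were measured on 1-colour Agilent arrays. The titles number the pools 1 and 2 within each genotype and call them biological replicates. A test then measures the spread between pools, not between mice.

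IL-23 is made by dendritic cells and macrophages from a p19 subunit, encoded by Il23a, and a p40 subunit that it shares with IL-12. It acts on Th17 cells, gamma-delta T cells and type 3 innate lymphoid cells, which carry its receptor and release IL-17A, IL-17F and IL-22. IL-22 binds IL-22RA1 with IL-10RB on epithelium, signals through STAT3 and induces antimicrobial and repair genes. IL-17A and IL-17F bind IL-17RA with IL-17RC and induce chemokines that draw neutrophils. STAP-2 binds STAT3, and which genes of the DSS-treated colon differ when it is missing is the question the design puts.

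Between 68.4% and 70.5% of the non-control spots on an array were well above background, by the flag the scanner software gives each spot. Stap2, the targeted gene, gave no spot well above background in STAP-2-/- colons, and its level in WT colons was at least 720.9-fold higher (limma adjusted p = 0.316); whether its 1 probe lies in the deleted part was not analysed here. The colon label was borne out by its markers: all 11 epithelial markers found, among them Epcam, Cdh1 and Vil1, were well above background on all 4 arrays. Levels are given as log2 of the processed signal over the 75th percentile of the array, and a difference of 1 on that scale is a 2-fold difference. In limma's test of STAP-2-/- against WT, 0 of 15551 genes (0%) passed an adjusted p of 0.05, and 325 had an unadjusted p under it (2.09%). Each member is also described by pool 1 against pool 2. All 4 arrays lay on 1 slide and were read in 1 scan, so neither could be a batch.

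RefSeq promoters (build GRCm38.p6) were matched for 6 of the 9 genes: Il22, Il17a, Il17f, Il22ra1, Il17rc and Il23r. The 250 bases before the annotated start of the 3 effector cytokine genes are shown because the results below turn on these cytokines. Capitals mark TATAAA on the gene's strand, the core of a TATA box, and AGGTCA on either strand (TGACCT when reversed), a half-site that nuclear receptors bind. The windows are Il22 at chr10:118204714-118204963 (plus strand), Il17a at chr1:20730655-20730904 (plus strand) and Il17f at chr1:20784271-20784520 (minus strand).
Il22: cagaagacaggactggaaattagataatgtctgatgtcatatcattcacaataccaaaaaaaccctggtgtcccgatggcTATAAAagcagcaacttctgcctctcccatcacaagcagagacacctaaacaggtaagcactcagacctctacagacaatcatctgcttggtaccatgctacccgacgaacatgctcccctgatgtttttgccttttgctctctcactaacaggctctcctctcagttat
Il17a: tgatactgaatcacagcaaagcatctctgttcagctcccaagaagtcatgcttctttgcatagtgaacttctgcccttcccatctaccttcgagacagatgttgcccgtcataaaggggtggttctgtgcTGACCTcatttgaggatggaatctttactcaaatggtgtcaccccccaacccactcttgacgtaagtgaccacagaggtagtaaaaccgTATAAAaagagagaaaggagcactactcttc
Il17f: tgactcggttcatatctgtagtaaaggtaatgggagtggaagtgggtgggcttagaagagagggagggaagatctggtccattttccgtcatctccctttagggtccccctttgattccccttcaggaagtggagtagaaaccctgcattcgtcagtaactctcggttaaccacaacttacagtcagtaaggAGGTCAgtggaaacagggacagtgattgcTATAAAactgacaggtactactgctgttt
TATAAA stood in all 3 cytokine windows and in 0 of the 3 receptor windows, against 7.59% of 32851 windows of this length over the genome. It began 170 bases before the annotated start in Il22, 31 bases before it in Il17a and 29 bases before it in Il17f. AGGTCA was found in the windows of Il17a, Il17f and Il23r, and in 14.02% of all windows. TTCNNNGAA, a spacing that STAT factors bind, searched on both strands, was in 0 of the 6 windows and in 7.02% of all. These are matches of letters within short windows.

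Il22, the cytokine that acts on epithelium, was high in 1 of the 4 pools. Its processed signal was 54.8 and 26.0 in STAP-2-/- pools 1 and 2, against 53.8 and 237 in WT pools 1 and 2. The scanner software's own error of these signals was 7.91 and 5.36 in STAP-2-/-, and 8.12 and 24.2 in WT. All 4 were well above background, and on these unscaled signals the genotypes overlapped. After scaling to the 75th percentile STAP-2-/- pool 1, at -5.38, lay just under WT pool 1, at -5.31, and they no longer did. On the log2 scale Il22 averaged -5.94 ± 0.79 in STAP-2-/- and -4.27 ± 1.47 in WT colons (SD, n = 2 each). The difference was -1.67 (SE 0.86, 95% interval -4.08 to 0.74), with a limma adjusted p of 1. Between the pools numbered 1, STAP-2-/- and WT differed by -0.07, less than the software's error of either signal. Between the pools numbered 2, the STAP-2-/- pool was 9.68-fold lower. Without WT pool 2 the difference was -0.63, without WT pool 1 -2.72, without STAP-2-/- pool 1 -2.23 and without STAP-2-/- pool 2 -1.11. Pool 1 against pool 2 ran in opposite directions within the genotypes, by 1.12 in STAP-2-/- and by -2.08 in WT. In whole-colon RNA, fewer cells of a type and less RNA per cell cannot be told apart.

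Il17a, the leading cytokine of Th17 cells, was well above background on the array of WT pool 2 alone. Its processed signal was 9.69 and 10.8 in the STAP-2-/- pools, against 10.6 and 45.4 in the WT pools. The lowest signal well above background on the WT pool 2 array was 22.7, and the software's error of its Il17a signal was 6.57. None of the other 3 spots was well above background, so they have no order among themselves. Il17a was therefore not among the genes tested, and no bound above 1 could be set on its fold between genotypes.

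Il17f, a close relative of Il17a that uses the same receptor, was also well above background on WT pool 2 alone. Its processed signal was 26.1 and 7.63 in the STAP-2-/- pools, against 12.2 and 28.0 in the WT pools. The signal of STAP-2-/- pool 1, with a software error of 6.46, lay within that error of the WT pool 2 signal although only the WT pool 2 spot carried the flag. The genotypes overlapped, and no fold is given.

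Il23a and Il23r, the p19 subunit of IL-23 and the receptor chain that binds it, were not well above background on any of the 4 arrays. The Il23a signal was 5.60 and 6.85 in the STAP-2-/- pools, against 5.94 and 4.83 in the WT pools. The Il23r signal was 8.22 and 11.5 in the STAP-2-/- pools, against 6.06 and 9.996 in the WT pools. A difference between genotypes was not detectable for either gene at this signal. Of the partners of these proteins, the p40 gene Il12b had no probe named here. Il12rb1, the second chain of the IL-23 receptor, was at -4.503 and -3.09 in STAP-2-/- pools, against -4.31 and -4.35 in WT pools (difference 0.54, SE 0.52, limma adjusted p = 1), and STAP-2-/- pool 2 stood above the other pools.

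**Figure D1:**
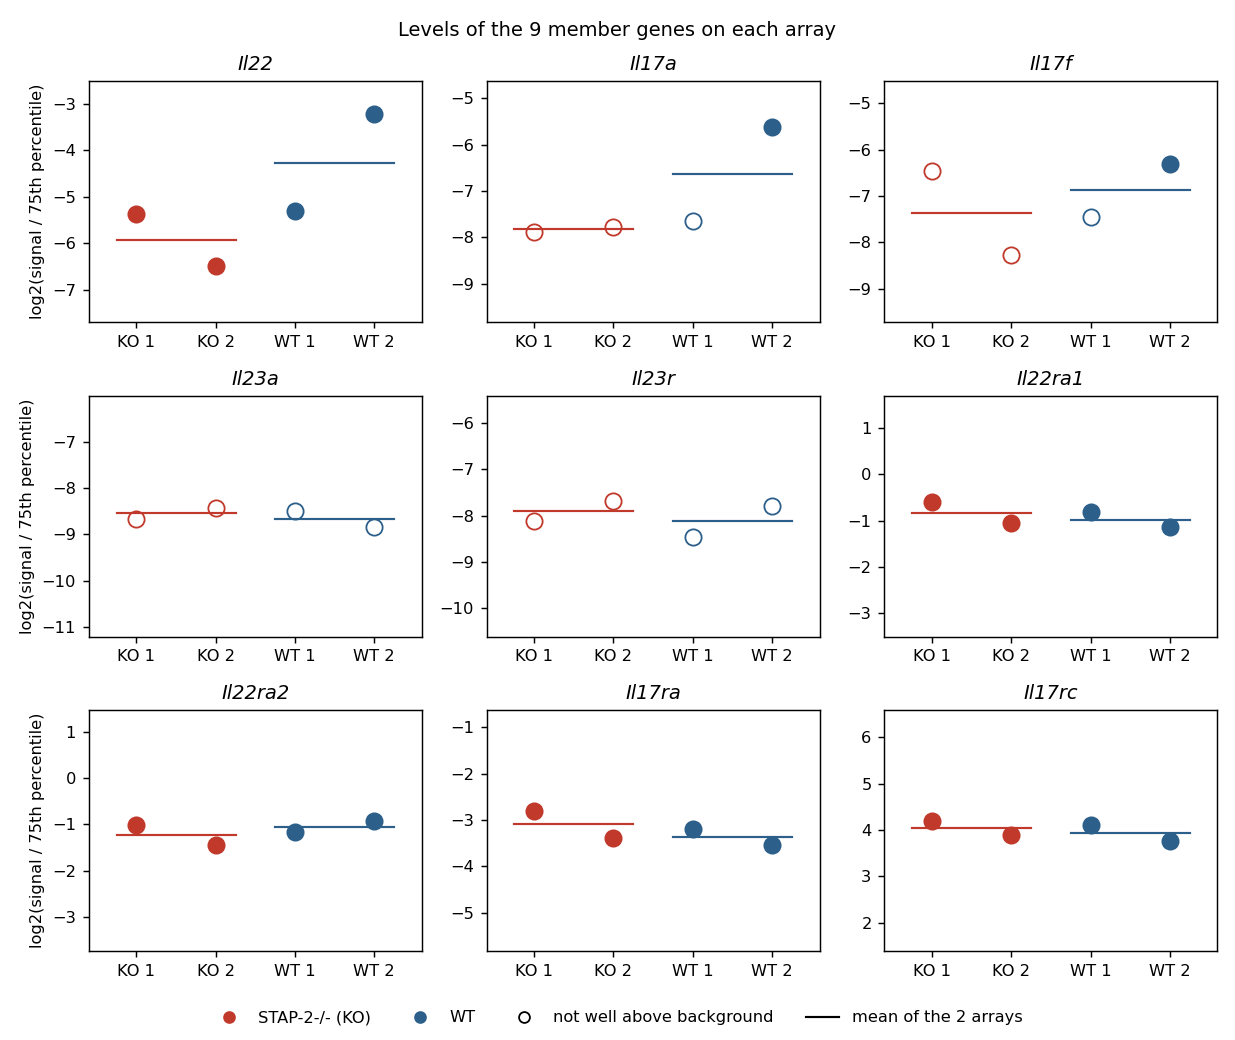
Level of each member gene on each array, as log2 of the processed signal over the array's 75th percentile. Each panel spans the same number of log2 units around its own mean. Filled points were well above background, open points were not, and lines are means of the 2 arrays of a genotype (KO is STAP-2-/-). Il22, Il17a and Il17f are highest on WT 2, Il23a and Il23r are open on every array, and the other 4 receptors are filled on every array.

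Il22ra1, the IL-22 receptor chain of epithelium, was well above background in every pool. Its level was -0.60 and -1.06 in STAP-2-/- pools 1 and 2, against -0.82 and -1.14 in WT pools 1 and 2. Both pools numbered 1 lay above both numbered 2, and the genotypes overlapped. STAP-2-/- and WT differed by 0.15 (SE 0.24, 95% interval -0.51 to 0.82, limma adjusted p = 1). Pool 1 and pool 2 differed by 0.39 (SE 0.13, 95% interval 0.05 to 0.73, limma adjusted p = 0.163 over all genes). A second Il22ra1 probe was well above background on STAP-2-/- pool 1 alone and was not tested. Il10rb, the chain that completes the receptor, differed by -0.05 between genotypes (SE 0.18).

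Il22ra2 encodes IL-22 binding protein, a soluble receptor that binds IL-22 and blocks it. Its level was -1.02 and -1.44 in STAP-2-/- pools, against -1.17 and -0.93 in WT pools. The highest and the second highest pool were WT pool 2 and STAP-2-/- pool 1, and the groups overlapped both by genotype and by pool number. The genotype difference was -0.18 (SE 0.21, 95% interval -0.78 to 0.42, limma adjusted p = 1). Between the pools numbered 2 it was -0.51, and between those numbered 1 it was 0.15. The pool difference was 0.10 (SE 0.20, limma adjusted p = 0.783). The 95% interval of the genotype difference of Il22ra2 left room for less than a 2-fold change either way.

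Il17ra, the chain shared by several IL-17 receptors, was at -2.81 and -3.38 in STAP-2-/- pools 1 and 2, against -3.20 and -3.53 in WT pools 1 and 2. STAP-2-/- was above WT within each number, while the genotypes overlapped as groups. The genotype difference was 0.27 (SE 0.27, 95% interval -0.48 to 1.02, limma adjusted p = 1). Pool 1 exceeded pool 2 in both genotypes, with a difference of 0.45 (SE 0.17, limma adjusted p = 0.197).

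Il17rc, the chain that pairs with IL-17RA to bind IL-17A and IL-17F, was at 4.18 and 3.90 in STAP-2-/- pools, against 4.10 and 3.75 in WT pools. The genotype difference was 0.12 (SE 0.20, 95% interval -0.45 to 0.69, limma adjusted p = 1), and the pool difference was 0.32 (SE 0.11, limma adjusted p = 0.186). A second Il17rc probe, well above background on all 4 arrays, gave the same direction with a larger pool difference, 0.85 (SE 0.16, limma adjusted p = 0.103), and a genotype difference of 0.27 (SE 0.45). The 2 probes thus differed in size for the pools, by more than 1.5 times, and both left pool 1 above pool 2 in each genotype.

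**Figure D2:**
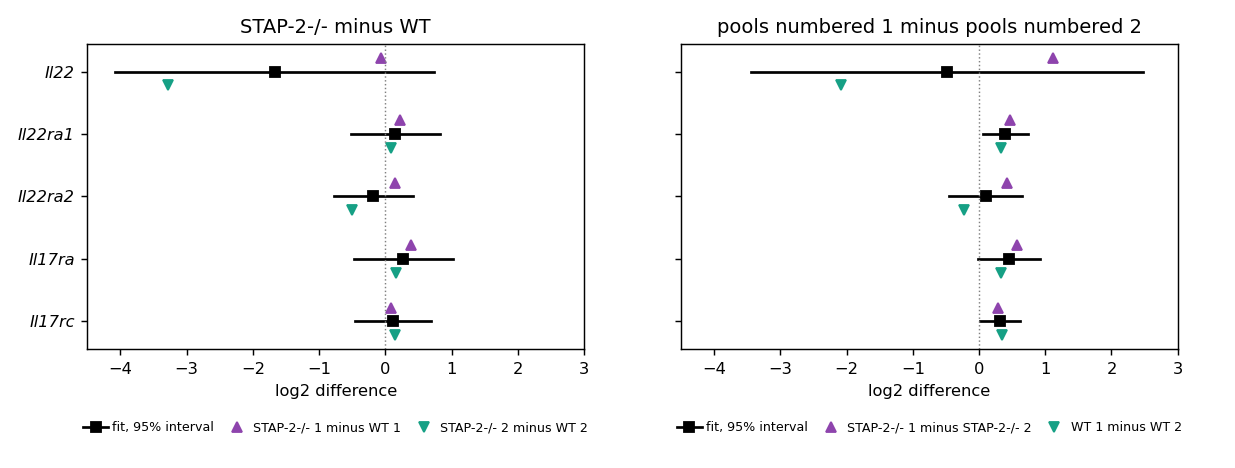
Log2 differences of the 5 members that were tested, between genotypes on the left and between pool numbers on the right. Squares with bars are the limma estimate and its 95% interval, and triangles are the differences between single pools named in each key. The Il22 triangles lie at -0.07 and -3.28 on the left and on opposite sides of 0 on the right, while the triangles of Il22ra1, Il17ra and Il17rc lie above 0 in every pairing; on the left all 5 intervals cross 0.

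In all, 5 of the 9 genes passed the filter on dim probes and were tested in each comparison. Between genotypes 0 of 5 passed the limma test, adjusted or not, 3 were higher in STAP-2-/- colons (48.3% of all genes were) and 2 lower (51.7%), and their median difference was 0.12 against -0.01 over all genes tested. The one tested member without overlap between genotypes on the scaled values was Il22, where 24.9% of all genes tested had none (13.3% with STAP-2-/- lower). Between pool numbers 0 of 5 passed the limma test (0.0256% of all genes, 4 of 15638), and Il22ra1 and Il17rc had an unadjusted p under 0.05, as did 26% of all genes. Il22ra1, Il17ra and Il17rc had no overlap between pool 1 and pool 2, a count of 3 of 5 where 63% of all genes had none (36.1% with pool 1 higher). That count is near the share of all genes, and the median pool difference of the tested members, 0.32, stood beside 0.04 over all genes. With 2 arrays a group an exact permutation test cannot give a two-sided p under 0.333.

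Other genes of the IL-17 family were measured through 5 tested genes, of which 0 passed the limma test between genotypes, adjusted or not. Of the 5, 3 were lower, where 51.7% of all genes were. Il17d, a family cytokine of broad expression, was at -0.20 and 0.29 in STAP-2-/- pools, against 0.47 and 0.48 in WT pools (difference -0.43, SE 0.21). Il17re, the receptor chain for IL-17C on epithelium, differed by 0.21 (SE 0.28), Il25 by 0.13 (SE 0.18) and its receptor gene Il17rb by -0.16 (SE 0.13). Il17b was not well above background on any array. Among 8 tested genes of the IL-10 and IL-12 families and their receptor chains, 4 were lower and 0 passed, adjusted or not, with a median of 0.00. Il10ra differed by 0.17 (SE 0.22), Il12rb2 by 0.11 (SE 0.14) and the IL-20 receptor ligand Il24 by -0.16 (SE 0.30).

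Of 15 genes that signal below these receptors, all tested, 0 passed limma between genotypes. Of these, 1 had an unadjusted p under 0.05, as did 2.09% of all genes. A count of 9 of 15 were lower, where 51.7% of all genes were, and the median was -0.07. It was 0.0082 without STAP-2-/- pool 2 (7 of 15 lower), -0.14 without STAP-2-/- pool 1 and -0.11 without WT pool 2. Socs3, an inhibitor of JAK kinases that active STAT3 switches on, was at 1.07 and 0.97 in STAP-2-/- pools, against 2.09 and 2.64 in WT pools. Both STAP-2-/- pools lay below both WT pools, with a difference of -1.34 (SE 0.24, limma adjusted p = 1). Socs3 was named for the smallest limma unadjusted p of its list, and 13.3% of all genes tested had that order. Zc3h12a, an RNase that limits IL-17 signalling, differed by -0.47 (SE 0.25) and Stat3 by -0.22 (SE 0.16). The adaptor Traf3ip2 (Act1), which IL-17 receptors need, differed by 0.09 (SE 0.23); it was chosen after its values were seen.

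Most cytokines that induce or sustain the axis had lower levels in the pools numbered 1. Of 8 tested between genotypes, 7 were lower in STAP-2-/- colons, where 51.7% of all genes were lower, the median being -0.40, and 0 passed limma, adjusted or not. The median was -0.032 without WT pool 2 (5 of 8 lower), -0.17 without STAP-2-/- pool 1 and -0.65 without WT pool 1. Tnf differed by -1.34 (SE 0.75), Lta by -0.50 (SE 0.34), Il33 by -0.31 (SE 0.26) and Il18 by -0.80 (SE 0.70). Each leaned on 1 array: Tnf differed by -0.33 without STAP-2-/- pool 1, Lta by -0.15 and Il33 by -0.0039 without WT pool 2, and Il18 by 0.15 without STAP-2-/- pool 2. Between pool numbers 8 of 9 were lower in pool 1, where 45.2% of all genes were, with a median of -0.61. One of the 9 is Il6, which passed the filter on dim probes only through the pools numbered 2, so its direction followed from the filter. Il6, which starts Th17 differentiation, was not well above background in either pool numbered 1. It was at -7.47 and -5.61 in STAP-2-/- pools 1 and 2, against -7.08 and -1.96 in WT pools 1 and 2, and Il6 was 12.6-fold lower in STAP-2-/- pool 2 than in WT pool 2. Il1b, the inflammasome cytokine, was at -2.33 and -1.09 in STAP-2-/- pools, against -1.96 and 0.03 in WT pools. Il6 and Il1b were chosen after their values were seen, and like Il22 both were highest in WT pool 2.

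Epithelial genes that IL-22 is known to induce were all lower on average in STAP-2-/- colons, and none passed the test. The list held 16 tested genes, all lower where 51.7% of all genes were, with a median difference of -0.70, against -0.01 over all genes. Of the 16, 0 passed limma and 2 had an unadjusted p under 0.05, where 2.09% of all genes had. Without WT pool 2, and also without STAP-2-/- pool 1, 9 of 16 were lower and the median was -0.19. Duoxa2, the maturation factor of the hydrogen peroxide producing oxidase Duox2, was at 0.06 and 1.13 in STAP-2-/- pools, against 2.20 and 2.27 in WT pools. The pools of the genotypes did not overlap for Duoxa2 (difference -1.64, SE 0.41, limma adjusted p = 1). Of the 16, 4 had no overlap, all with STAP-2-/- lower, where 13.3% of all genes tested had that order. Duoxa2, Steap4, Bcl3 and Lbp were named for the smallest limma unadjusted p of the list, so their separation follows partly from that choice. Steap4, a metalloreductase, differed by -0.64 (SE 0.17) with no overlap, the NF-kB cofactor Bcl3 by -0.35 (SE 0.16) and the lipopolysaccharide-binding protein gene Lbp by -0.80 (SE 0.40).

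The antimicrobial lectins of the list went mainly with pool number. Reg3g was at 1.55 and 5.22 in STAP-2-/- pools 1 and 2, against 2.94 and 5.77 in WT pools 1 and 2. Reg3b was at 3.23 and 6.32 in STAP-2-/- pools, against 4.55 and 6.91 in WT pools. Both genes were lower in each pool numbered 1 than in either pool numbered 2, where 63% of all genes had no overlap in either direction. Il22 did not share that order, since STAP-2-/- pool 2 had the lowest Il22 signal. The pool 1 minus pool 2 difference was -3.25 for Reg3g (SE 0.51, limma adjusted p = 0.0849) and -2.72 for Reg3b (SE 0.50, limma adjusted p = 0.0983). Of the 16 genes, 11 were lower in pool 1, where 45.2% of all genes were. Their median was -0.70 over the 16, and -0.28 without STAP-2-/- pool 1. Saa1 and Saa2, near-identical copies whose probes may share targets, had pool differences of the other sign, 1.48 (SE 0.68, limma adjusted p = 0.252) and 1.53 (SE 0.67, limma adjusted p = 0.234). Without STAP-2-/- pool 2 these were 0.51 for Saa1 and 0.57 for Saa2. Reg3b, Reg3g, Saa1 and Saa2 were chosen after their values were seen.

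Genes that IL-17 is known to induce held several whose highest level was in WT pool 2. The lists share genes: Lcn2 and Steap4 are also on the IL-22-induced list, Nfkbiz and Zc3h12a on the signalling list. Il6 is also on the list of inducers. Of the 14 IL-17-induced genes tested between genotypes, 13 were lower in STAP-2-/- colons, where 51.7% of all genes were lower. The median was -0.50. Of the 14, 0 passed limma and 2 had an unadjusted p under 0.05, where 2.09% of all genes had. Without WT pool 2, 7 of 14 were lower with a median of -0.0498. Without STAP-2-/- pool 1, 9 of 14 were lower with a median of -0.20. Cxcl5, a neutrophil chemokine, was at -2.92 and -3.86 in STAP-2-/- pools, against -2.0003 and -0.80 in WT pools. The genotypes did not overlap for Cxcl5 (difference -1.99, SE 0.56, limma adjusted p = 1). Cxcl5 was named for its small limma unadjusted p within the list, and 13.3% of all genes tested had no overlap with STAP-2-/- lower. Pigr, the receptor that carries IgA into the gut lumen, differed by -0.27 (SE 0.14). Between pool numbers 13 of 15 were lower in pool 1, where 45.2% of all genes were, with a median of -0.31. Il6 was again among the 13 through the filter. The median was -0.28 over genes well above background on all arrays, -0.17 without WT pool 2, -0.79 without STAP-2-/- pool 2 and -0.60 without WT pool 1. Of the 14 genes, 10 were highest on the WT pool 2 array, where 19.4% of all genes tested were. Cxcl1, Cxcl5, Ccl2 and Mmp3 stood at least 2-fold above the next array there, as did Il22 and 0.264% of all genes tested (41 genes); Ccl2 and Mmp3 were chosen after their values were seen.

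**Figure D3:**
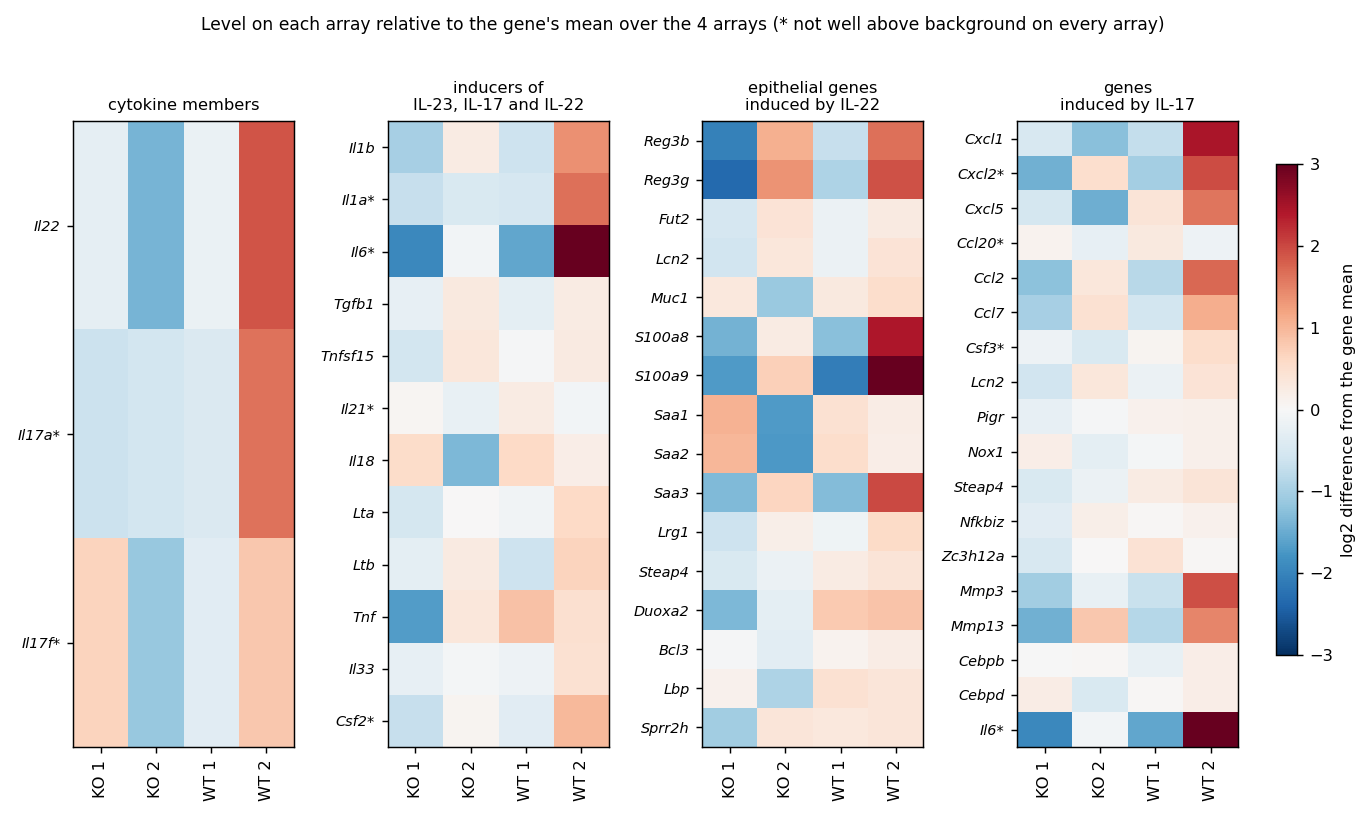
Level of each gene on each array as a log2 difference from its mean over the 4 arrays (red above, blue below, colours end at 3), for 3 cytokine members and 3 lists of pathway genes. An asterisk marks genes not well above background on every array, and KO is STAP-2-/-. The WT 2 column is red for Il22, Il17a, Il6, Cxcl1 and S100a9, while Reg3b and Reg3g are red on both arrays numbered 2.

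**Figure D4:**
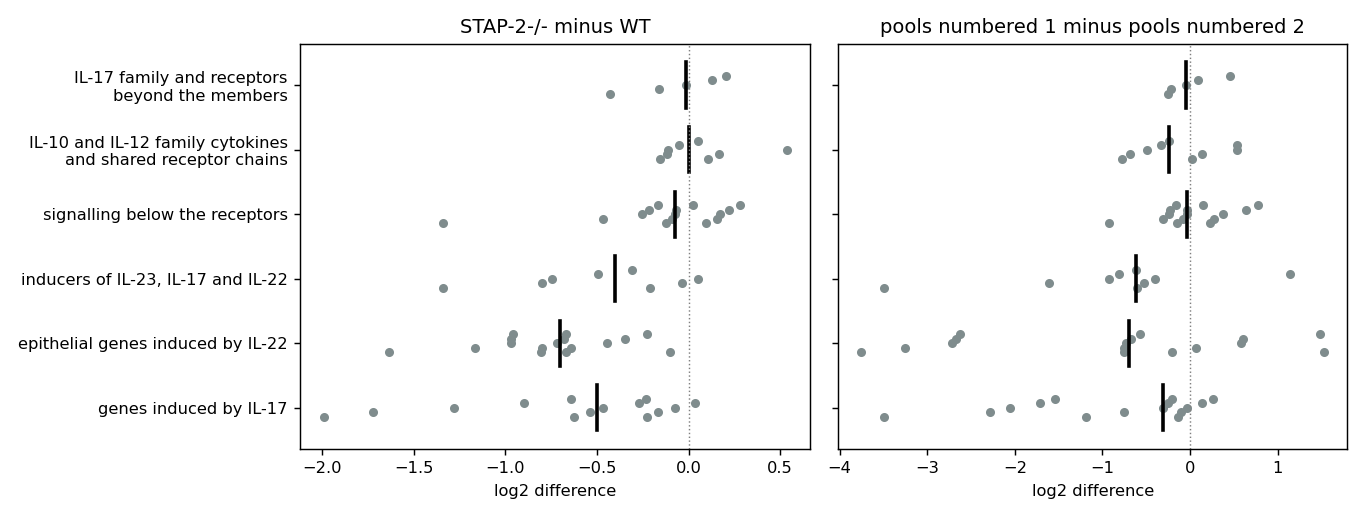
Log2 differences of the tested genes of 6 pathway lists (points) with the list median (black bars), between genotypes on the left and between pool numbers on the right. The medians of inducers, IL-22-induced and IL-17-induced genes are -0.40, -0.70 and -0.50 on the left and -0.61, -0.70 and -0.31 on the right.

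Markers of the cells that make and receive these cytokines were measured beside the members, and their part in the differences was not tested. Of 14 markers of Th17 and type 3 innate lymphoid cells, 13 were well above background on all arrays and Ncr1 on none. Their summed level, in multiples of the 75th percentile, was 30.2 and 34.5 in STAP-2-/- pools, against 30.1 and 34.3 in WT pools, and Tmem176b made up most of it. Rora differed by -0.12 between genotypes and Ahr by -0.14.

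All 9 T cell markers found were well above background on every array, and all 9 were higher in STAP-2-/- colons (median 0.42), where 48.3% of all genes were. None of the 9 passed limma, adjusted or not, and 3 had no overlap between genotypes, all with STAP-2-/- higher. Of all genes tested, 24.9% had no overlap in either direction, and 13.3% had none with STAP-2-/- lower. Without STAP-2-/- pool 2 the median was 0.11 and 3 were lower. Their summed level was 3.12 and 4.75 in STAP-2-/- pools, against 2.75 and 3.01 in WT pools, so that the pool with the lowest Il22 signal had the highest T cell level. Cd3e differed by 0.42, Cd3d by 0.95 and Cd3g by 0.94. The 12 dendritic cell and macrophage markers, all well above background, summed to 39.3 and 38.9 in STAP-2-/- pools, against 40.9 and 39.3 in WT pools, with Itgam the largest share. The median of their levels, each centred on its own mean, was -0.21 and 0.064 in STAP-2-/- pools, against -0.12 and 0.14 in WT pools, so it was lower in the pools numbered 1 where the sum was not. Itgax differed by 0.15, Itgam by -0.09 and Cd209a by -0.33.

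The neutrophil markers S100a8 and S100a9 were highest in WT pool 2, as Il22 was. Of 9 markers found, 6 were well above background on all arrays, Ngp on none and Cxcr2 on 1. S100a9, a calprotectin subunit of neutrophils, was at -3.71 and -1.30 in STAP-2-/- pools, against -4.08 and 1.02 in WT pools. S100a8, the partner subunit, was at -4.95 and -3.29 in STAP-2-/- pools, against -4.80 and -1.11 in WT pools. Both are also on the list of IL-22-induced genes and were chosen after their values were seen. The summed level of the 9 markers, carried mostly by Csf3r, was 57.6 and 44.8 in STAP-2-/- pools, against 59.0 and 53.2 in WT pools. The median centred level of the 7 tested between genotypes was -0.27 and 0.016 in STAP-2-/- pools, against -0.21 and 0.72 in WT pools. Of the 7, 5 were highest in WT pool 2, S100a8 and S100a9 among them, where 19.4% of all genes tested were.

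The genes whose pattern over the 4 arrays lay nearest to Il22 were Proz, Cxcl5, Tnfrsf13c, Cxcl1 and Has2. The measure was the Euclidean distance of log2 values centred on each gene's mean, over 15550 genes. It was 0.32 for Proz, a vitamin K-dependent plasma protein gene, 0.71 for Cxcl5, 0.79 for Tnfrsf13c, the BAFF receptor gene of B cells, 0.80 for Cxcl1 and 0.88 for the hyaluronan synthase Has2. Cxcl1, a neutrophil chemokine, was at -5.29 and -6.07 in STAP-2-/- pools, against -5.54 and -2.38 in WT pools. As for Il22, the pools numbered 1 were close to each other and WT pool 2 stood apart, and Cxcl1 differed by -1.72 between genotypes (SE 1.17, limma adjusted p = 1). Proz was not well above background in STAP-2-/- pool 2, so its distance rests partly on a background value. With 4 arrays, a short distance is a description of these pools only.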

How the data were processed

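Each of the authors' deposited files is 1 array's scanner output; per the file headers its columns are the processed signal intensity of each spot with its error, the median spot and background intensity, and other values such as flags of 0 or 1. The submitters' processing notes name Agilent Feature Extraction 10.7.1.1. A deposited table of the authors' values is a ratio: the processed signal over 1 constant per array (within 1% for 100% of probes compared), with column medians of 0.091 and 0.084 for STAP-2-/- and 0.090 and 0.087 for WT; it was an alternative only.

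Each array was scaled to its 75th percentile over non-control spots (2280 and 2348 in STAP-2-/-, 2134 and 2215 in WT) and put on the log2 scale here. Outlier-flagged spots were set missing, which touched no member, and genes with a missing value were not fitted. Probes were named through unversioned accessions in a RefSeq table of GRCm38.p6 (27427 of 39429 probes); the array annotation uses another build. A gene was tested if well above background on both arrays of a group. Where a group had no such array, only a bound was given, against the higher of each array's own signal and its lowest signal well above background.

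Groups were compared with limma 3.58.1 in R 4.3.3 (lmFit, eBayes, Benjamini-Hochberg at 0.05). The fit was tested on simulated data: with 15551 genes, a 4-fold change passed in 44.1% of the altered genes and a 2-fold change in 0%. The simulated noise was independent between arrays, whereas equal-numbered arrays here had a correlation of 0.631 in their deviations. These shares may therefore be too high for these arrays, where Stap2 itself had a limma adjusted p of 0.316. Python 3.11.15 made tables and figures. The members and gene lists were chosen with earlier results of these data known. Named genes were all members, Stap2, up to 4 tested genes per pathway list by smallest unadjusted p, the partners Il10rb, Il12rb1 and Il12b, the first 3 of each marker list, and the 5 tested genes nearest to Il22 that were not members, leaving out provisional names. Some genes that this rule names are not reported here. All arrays held distinct values and no spot was saturated. Il17rel, Il12b, Duox2, Trac, Tcrg-C1, Ly6g and Muc2 were not matched and are not analysed here.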

Additional observations from a re-analysis of the deposited data

Results flagged for a closer look

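Both Il22 and Il22ra2 differed between the genotypes in how pool 1 compared with pool 2. For Il22 the pool 1 minus pool 2 difference was 1.12 in STAP-2-/- and -2.08 in WT colons, so the genotypes were 3.21 apart on the log2 scale. For Il22ra2 it was 0.43 in STAP-2-/- and -0.23 in WT colons, 0.66 apart. The directions were opposite within the genotypes, and the difference was not tested, since each combination of genotype and number holds 1 array. The labels tie pools of equal number to each other by the number only. Over genes well above background on all arrays, the pool difference had an SD of 0.61 in STAP-2-/- and 0.40 in WT colons. Both Il22ra2 differences lay within that spread, and the share of all genes with such a gap was not counted.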

How the results depend on the processing

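Over all alternatives no member passed the limma threshold. The count of genes past it between genotypes was 1 (Stap2) with normexp correction, an offset of 50 and the median spot signal, and 0 under every other alternative, leaving out 1 array included. Between pool numbers the count was 4, and it was 0 with normexp correction, 0 with no filter on dim probes, 0 with probes above background on all arrays, 0 with genotype as a covariate, 28 with an intensity trend and robust fit, and 0 to 3 with 1 array left out. With the replicate block 0 genes passed between genotypes and 1040 had an unadjusted p under 0.05, against 325; the equal-numbered arrays of the genotypes had a correlation of 0.631 in their deviations, and 2 pairs joined by a number alone do not show a pairing.

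With 1 array left out, genotype differences ran from -2.72 to -0.63 for Il22, -0.013 to 0.56 for Il17ra, -0.056 to 0.29 for Il17rc, -0.078 to 0.38 for Il22ra1 and -0.39 to 0.034 for Il22ra2, so all but Il22 reversed under at least 1 omission. Pool differences ran from -2.12 to 1.16 for Il22 and -0.16 to 0.35 for Il22ra2, both reversing, and from 0.26 to 0.65 for Il17ra, 0.24 to 0.39 for Il17rc and 0.28 to 0.50 for Il22ra1. Under the other alternatives no member changed direction; Il22 ran from -1.675 to -0.97 between genotypes, the smallest with normexp. The mean of the 2 probes of Il22ra1 gave 0.43 between genotypes and 0.91 between pools, one of them dim on 3 arrays. The second Il22ra1 probe gave no value of its own, since it did not pass the filter. With no filter Il17a differed by -1.19 between genotypes (limma adjusted p = 1), Il17f by -0.48, Il23a by 0.12 and Il23r by 0.23. Signals near background limit Il17a, Il17f, Il23a and Il23r.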
